A study of Homo sapiens with 145 samples.

Results

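DPYD, PTGES, LRRC17, RPS6KA2 and HHIP are 5 of the 12070 genes tested in HT-1080 cells, and they were chosen by measured values: their log2 levels at the highest doses of methyl methanesulfonate (MMS) stood far below those of the MMS vehicle. Their gene symbols are carried by 13 of the 54613 probe sets on the array. Where a gene had several probe sets, the one with the highest overall mean was read. HT-1080 is an established human fibrosarcoma line, a tumour line of connective tissue. Cells growing in 24-well plates were exposed for 24 h to MMS, to quercetin (QUE) or to etoposide (ETP), each at 7 doses in µM, or to the DMSO vehicle of that chemical. MMS is an alkylating agent that methylates DNA, quercetin is a plant flavonol and etoposide is a poison of topoisomerase II. Total RNA was labelled and hybridised to Affymetrix arrays, and the deposited values are log2 GCRMA levels. MMS was given at 1, 3, 10, 30, 100, 300 and 500 µM, QUE at 1, 3, 10, 30, 60, 80 and 100 µM, and ETP at 0.003, 0.01, 0.03, 0.1, 0.3, 1 and 3 µM, and each chemical had a DMSO group of its own. The comparisons ask which transcripts each dose moves away from vehicle.

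Each MMS group held 6 replicates, except 5 at 500 µM, and each QUE and ETP group held 5. The 16 groups of QUE and ETP leave out replicate number 2, whose arrays respond like the other chemical, so 129 of 145 arrays were used. Whether replicate numbers stand for separate cultures is not stated in the labels, so the p-values measure the spread between these samples, which may be technical. Array medians were 3.08 to 3.17 for MMS, 3.33 to 3.41 for QUE and 3.51 to 3.59 for ETP, so levels are compared only within a chemical. The vehicle groups had the profile of a mesenchymal line: 7 of 8 mesenchymal markers lay over a log2 level of 4 in all 3 vehicle groups, among them VIM at 13.16 to 13.27, and THY1 did not (3.18 to 3.53). All 4 blood markers and all 3 endothelial markers lay under 4, as did 4 of 5 epithelial markers, the exception being KRT18 (10.65 to 11.19). A level under 4 is treated as near the lower end of what these arrays resolve. An array measures a whole culture, so fewer cells that express a gene and less RNA per cell cannot be told apart.

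The 5 genes have unlike functions. DPYD encodes dihydropyrimidine dehydrogenase, the rate-limiting enzyme that breaks down uracil, thymine and the drug fluorouracil. PTGES encodes the inducible microsomal synthase that turns prostaglandin H2, the product of the cyclooxygenases, into prostaglandin E2, a lipid mediator of inflammation. LRRC17 encodes a secreted leucine-rich repeat protein reported, in mouse cells, to hold back the formation of osteoclasts that RANK ligand drives. HHIP encodes a cell surface protein that binds Hedgehog ligands and so keeps them from their receptor Patched. RPS6KA2 encodes a ribosomal S6 kinase of the RSK family, which the MAP kinase ERK activates.

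The promoters of 3 of the genes are shown because they represent the range of base composition among genes chosen for 1 shared MMS pattern: HHIP, the gene of the 5 called higher under QUE, PTGES, and LRRC17. All 5 genes had a RefSeq promoter on GRCh38.p14, and the most upstream start was used where several are listed (DPYD and RPS6KA2). Each sequence runs from 250 bases before the start to 50 after it and is written 5′ to 3′ on the strand of the gene. Capitals mark matches, on either strand, to the GC box GGGCGG, the CCAAT box, the TATA box TATAAA, the cAMP response element TGACGTCA, the EGR1 site GCGTGGGCG, the AP-1 site TGACTCA or the E-box CACGTG.
HHIP, chr4:144645906-144646205, plus strand: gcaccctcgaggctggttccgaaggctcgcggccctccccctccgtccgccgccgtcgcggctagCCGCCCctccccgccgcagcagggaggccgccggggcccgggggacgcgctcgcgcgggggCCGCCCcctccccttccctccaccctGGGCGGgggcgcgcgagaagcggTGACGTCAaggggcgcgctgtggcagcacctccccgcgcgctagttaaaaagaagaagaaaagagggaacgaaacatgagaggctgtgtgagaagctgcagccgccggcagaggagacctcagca
PTGES, chr9:129752993-129753292, minus strand: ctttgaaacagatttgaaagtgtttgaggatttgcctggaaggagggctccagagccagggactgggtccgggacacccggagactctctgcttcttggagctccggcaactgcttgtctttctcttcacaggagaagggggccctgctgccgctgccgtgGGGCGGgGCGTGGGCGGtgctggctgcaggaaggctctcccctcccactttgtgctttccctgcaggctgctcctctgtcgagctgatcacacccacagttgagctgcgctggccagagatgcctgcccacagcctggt
LRRC17, chr7:102912750-102913049, plus strand: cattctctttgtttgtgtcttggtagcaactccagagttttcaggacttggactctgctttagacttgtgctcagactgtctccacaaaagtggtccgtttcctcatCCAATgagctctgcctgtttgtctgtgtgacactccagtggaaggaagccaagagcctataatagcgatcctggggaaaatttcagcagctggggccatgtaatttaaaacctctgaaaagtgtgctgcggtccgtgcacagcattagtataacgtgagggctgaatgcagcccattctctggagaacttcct

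The HHIP promoter was 72.7% G and C with 36 CpG dinucleotides, against medians of 58.3% and 13 over 27305 promoters. It held 3 GC boxes, a motif found in 44.5% of all promoters, and 1 cAMP response element 75 bases before the start, found in 1.97%. The PTGES promoter (61.7%, 10 CpG) held 2 GC boxes and an EGR1 site (0.791% of promoters) that overlaps the GC box nearer the start. The LRRC17 promoter was poor in both (47.7%, 5 CpG) and held 1 CCAAT box (35.7% of promoters) and no GC box. Of the promoters not printed, that of DPYD (69.7%, 29 CpG) held 3 GC boxes, and that of RPS6KA2 (61.3%, 15 CpG) held 1 GC box and 1 CCAAT box. No window held TATAAA (12.0% of all promoters), TGACTCA (4.9%) or CACGTG (7.41%), which says only that these letters are not in these windows. Thus no motif of the 7 was shared by all 5 genes. A match is a run of letters and not a measured site.

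At the highest MMS dose all 5 transcripts stood close to or under the level of 4, against vehicle means between 7.03 and 9.08. This is the measure that chose the genes, so it is described here without a test. DPYD read 2.78, 3.13, 3.15, 3.31 and 2.92 at 500 µM, against 8.77, 8.89 and 9.04 (lowest, median and highest of 6) in vehicle. PTGES read 3.58, 4.12, 3.49, 3.71 and 3.87 at 500 µM, against 8.20, 9.04 and 9.32 in vehicle. For both enzymes every dosed array lay more than 4 log2 units under every vehicle array, and only 1 dosed array, of PTGES, was above 4.

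The secreted and surface regulators did likewise. LRRC17 read 2.81, 2.63, 2.75, 2.32 and 2.64 at 500 µM, against 7.26, 7.42 and 7.79 in vehicle. HHIP read 4.53, 3.96, 4.29, 4.76 and 4.65 at 500 µM, against 8.93, 9.10 and 9.14 in vehicle. HHIP was thus the gene whose MMS arrays mostly stayed above 4, in 4 of 5 arrays. The kinase gene RPS6KA2 read 2.62, 3.31, 3.22, 3.53 and 2.57 at 500 µM, against 6.49, 6.98 and 7.74 in vehicle. All 5 dosed arrays of LRRC17 and RPS6KA2 were under 4.

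The log2 differences from vehicle at 500 µM were -5.82 ± 0.27 for DPYD, -5.20 ± 0.27 for PTGES, -4.86 ± 0.20 for LRRC17, -4.64 ± 0.17 for HHIP and -3.98 ± 0.28 for RPS6KA2 (SE of the limma fit). Because levels under 4 have little meaning, the linear ratios are bounds: with such values set to 4, PTGES was at least 30.5 times lower, DPYD at least 29.4, HHIP at least 24.8, LRRC17 at least 11.2 and RPS6KA2 at least 8.16. These bounds are of the probe set chosen for each gene, and not of the gene. At 500 µM the second RPS6KA2 set, 204906_PM_at, stood at -1.68. The second DPYD set, 1554534_PM_at, which read only 3.37 in vehicle, stood at -0.28. The other HHIP sets stood at -4.15 and -4.40. The second PTGES probe set stayed above 4 and read 4.96 ± 0.63 at 500 µM against 7.31 ± 0.35 in vehicle (SD, n = 5 and 6), a smaller log2 difference of -2.35. All 5 genes had every 500 µM array below every vehicle array, as did 17.6% of all genes. Nothing is read from that share, since the same values chose the genes.

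**Figure D1:**
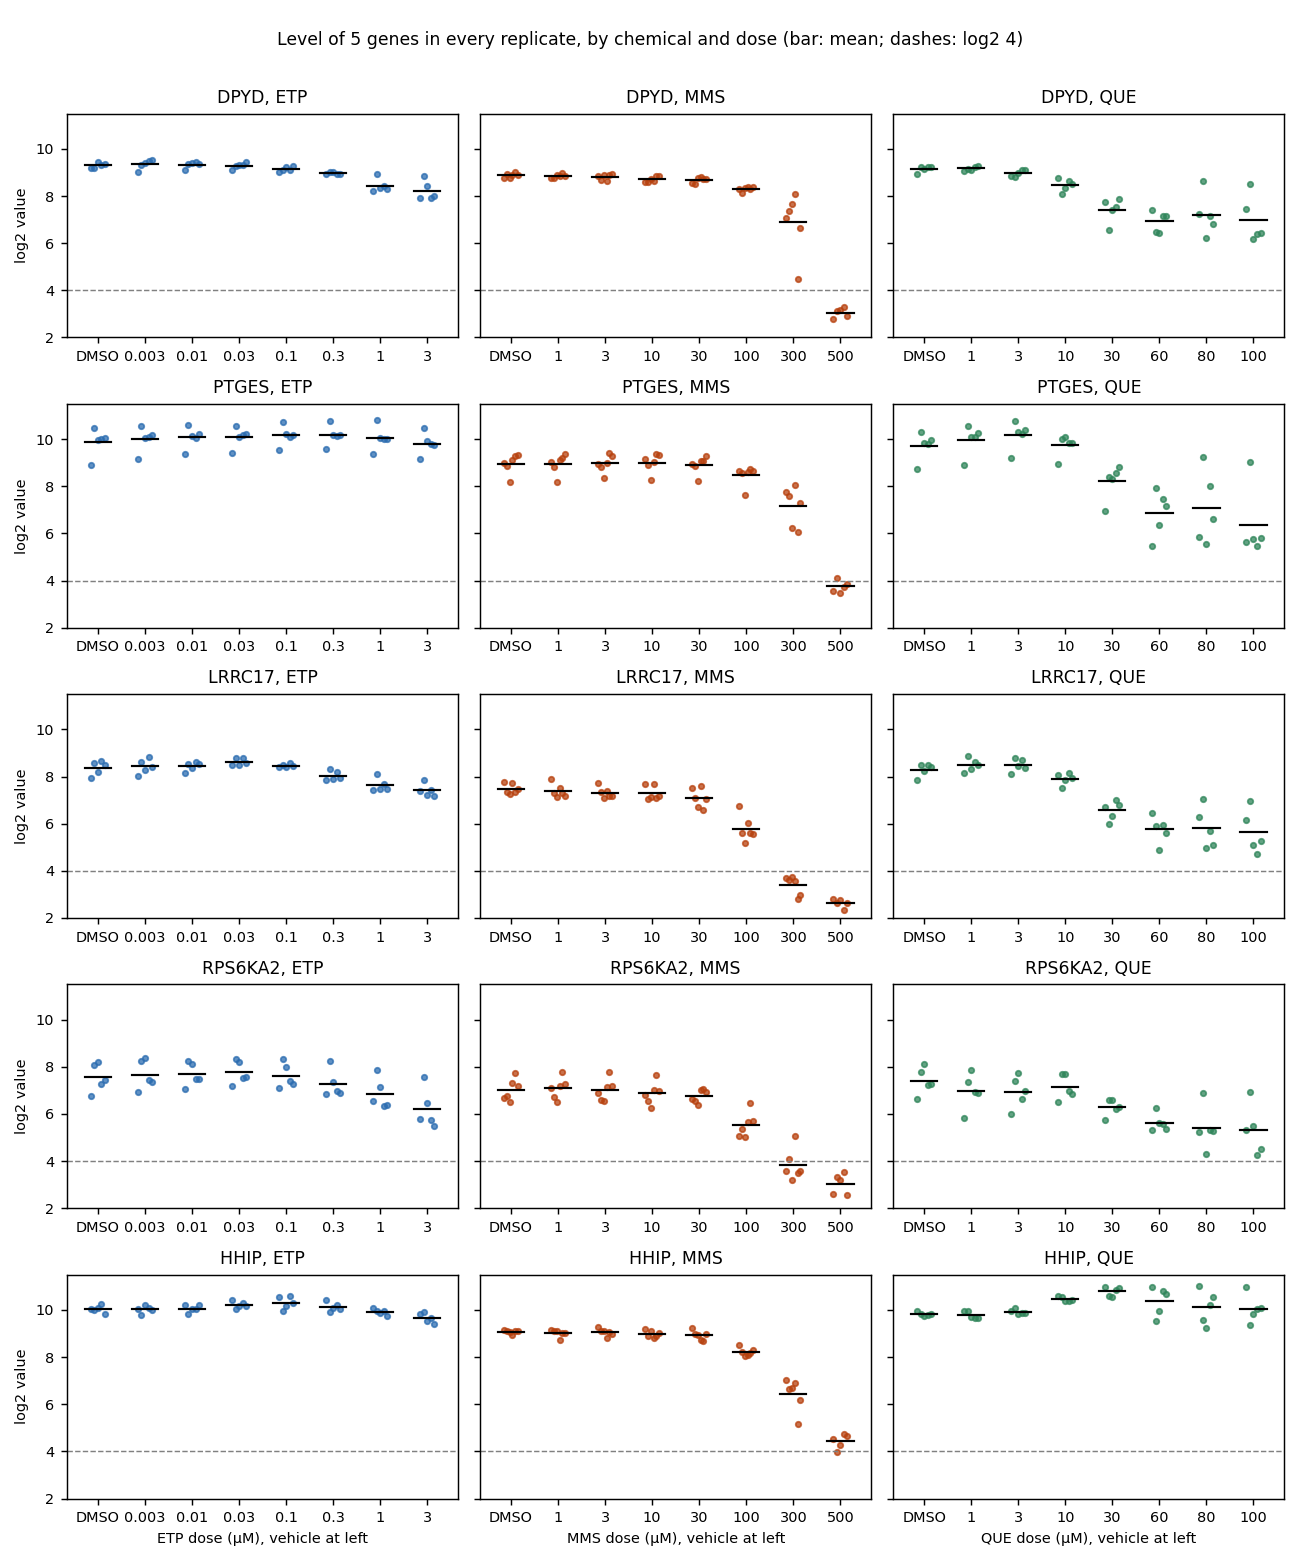
Log2 level of each of the 5 genes (rows of panels) on every replicate (points), with the group mean (bar), across the doses in µM of each chemical (columns of panels) with its DMSO group at the low end, and with a dashed line at a log2 level of 4. The MMS panels drop toward or under the line at 300 and 500 µM, the QUE panels drop without reaching it, except that HHIP stands highest at 30 µM, and the ETP panels move least.

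The genes departed from their vehicle level at different MMS doses. From vehicle up to 500 µM the group means of LRRC17 were 7.49, 7.38, 7.31, 7.30, 7.09, 5.79, 3.39 and 2.63, with SDs of 0.19 to 0.54. Those of RPS6KA2 were 7.03, 7.10, 7.03, 6.88, 6.76, 5.55, 3.84 and 3.05, with SDs of 0.29 to 0.66. At 300 µM all 6 arrays of LRRC17 and 4 of 6 of RPS6KA2 were already under 4, so neither gene could show much further drop at 500 µM.

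DPYD, PTGES and HHIP kept more of their level at 300 µM. The DPYD means were 8.88, 8.84, 8.81, 8.71, 8.68, 8.31, 6.89 and 3.06, and its SD was 1.27 at 300 µM but 0.09 to 0.21 at every other MMS dose and in vehicle. The PTGES means were 8.96, 8.95, 8.97, 9.00, 8.92, 8.48, 7.16 and 3.75, and the HHIP means were 9.08, 9.02, 9.06, 8.99, 8.92, 8.23, 6.43 and 4.44. The wide spread of DPYD at 300 µM came with replicate number 5, which read 4.49 where the median was 7.22 and the highest array 8.06. Number 5 was also the lowest array at 300 µM for PTGES (6.04), LRRC17 (2.80) and HHIP (5.15).

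Between neighbouring doses, groups that did not overlap were found for DPYD and HHIP at each step above 30 µM, for LRRC17 from 100 to 300 µM and for PTGES from 300 to 500 µM. For RPS6KA2 every pair of neighbouring MMS doses overlapped. From 30 to 100 µM, 0.804% of all genes had every array below. For the steps above 100 µM the share of all genes was not counted. Those steps use the arrays that chose the genes, so nothing is read from them. Up to 30 µM no neighbouring doses of any of the 5 genes were apart beyond their spread. All arrays lay below all vehicle arrays for 4 of 5 genes at 100 µM, where PTGES overlapped, and for 5 of 5 at 300 µM, as did 1.71% and 8.09% of all genes.

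The order is clearest as the dose at which a replicate, on a straight line over log dose, first lay 1 log2 unit under the vehicle mean, that is, at 50% of it. For MMS the median over 6 replicates was 48.3 µM for LRRC17 (34.1 to 110) and 61.3 µM for RPS6KA2 (40.5 to 117). It was 108 µM for HHIP (98.5 to 138), 146 µM for DPYD (113 to 306) and 187 µM for PTGES (53.2 to 303). These ranges overlap between neighbours in the order, and the widest is that of PTGES. The vehicle mean is that of the group and not of each replicate number, so a replicate that starts low crosses early.

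**Figure D2:**
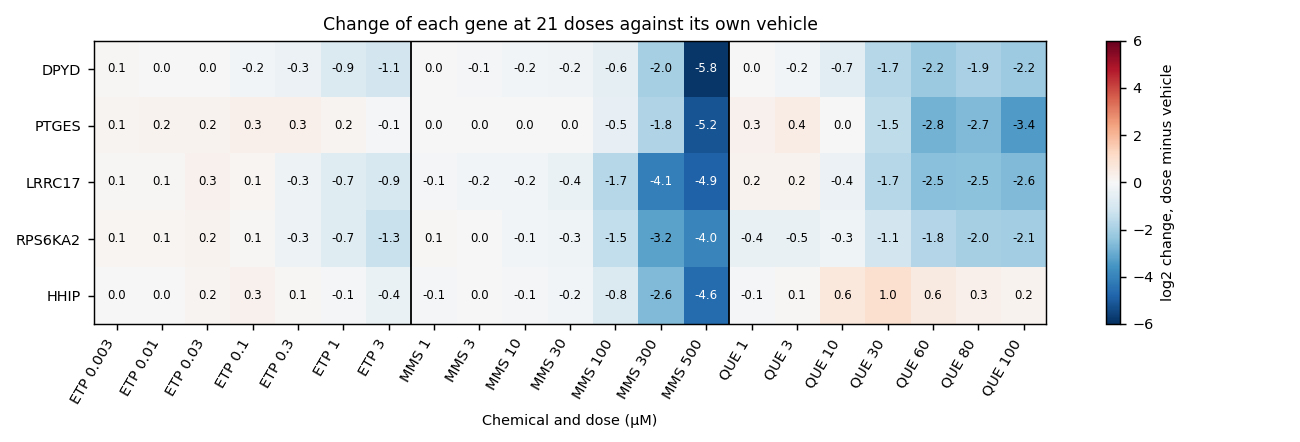
Heat map of the log2 difference from the chemical's own DMSO group for the 5 genes (rows) at the 21 doses (columns, in µM, low to high within a chemical). Blue cells are lower and red cells higher: MMS is darkest, down to -5.82 for DPYD at 500 µM, QUE is blue from 30 µM on for 4 genes and red for HHIP (0.95 at 30 µM), and ETP is pale.

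Within MMS, the 300 and 100 µM groups were also compared with 30 µM in a fit that leaves out the 500 µM and DMSO arrays. Earlier MMS results were known when the genes were chosen, so these comparisons measure size and error and are no independent support. The 300 µM arrays are among the high doses that chose the genes, so their values are given as a description with no test. At 300 µM against 30 µM all 5 genes were lower, where 6.65% of all genes were called lower (at least 1.5-fold with a Benjamini-Hochberg adjusted p under 0.05, limma), and nothing is read from that count. LRRC17 read 2.80, 3.59 and 3.74 (lowest, median, highest) at 300 µM, against 6.59, 7.08 and 7.59 at 30 µM. The LRRC17 difference was -3.70 ± 0.21 on the log2 scale (SE), and -3.09 with values under 4 set to 4, since every 300 µM array lay under 4. RPS6KA2 read 3.21, 3.59 and 5.05 at 300 µM, against 6.37, 6.78 and 7.07 at 30 µM. The RPS6KA2 difference was -2.92 ± 0.27, and -2.57 with values under 4 set to 4.

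For HHIP the arrays read 5.15, 6.66 and 7.03 at 300 µM, against 8.67, 8.95 and 9.24 at 30 µM. The HHIP difference was -2.49 ± 0.18 on the log2 scale (SE). For DPYD they read 4.49, 7.22 and 8.06 at 300 µM, against 8.50, 8.72 and 8.82 at 30 µM. The DPYD difference was -1.79 ± 0.29, and it was -1.31 without number 5 of the 100 and 300 µM groups. For PTGES they read 6.04, 7.45 and 8.05 at 300 µM, against 8.24, 9.02 and 9.27 at 30 µM. The PTGES difference was -1.76 ± 0.27. All 5 genes had every 300 µM array below every 30 µM array, as did 6.83% of all genes.

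At 100 µM against 30 µM, 3 of the 5 genes fell, where 0.298% of all genes were called lower. LRRC17 read 5.18, 5.61 and 6.75 at 100 µM and fell by 1.31 ± 0.21 (limma adjusted p = 0.000436), with 1 array inside the range at 30 µM. RPS6KA2 read 5.01, 5.51 and 6.46 and fell by 1.21 ± 0.27 (adjusted p = 0.0182). HHIP read 8.06, 8.21 and 8.51 and fell by 0.69 ± 0.18 (adjusted p = 0.0484). Without a replicate block the last call is the least firm, since it was lost in 14 alternatives (adjusted p = 0.056 to 0.143). That of RPS6KA2 was lost in 5 (0.0504 to 0.0625). With replicate number as a block, the limma adjusted p was 0.00168 for HHIP and 1.31e-05 for RPS6KA2. DPYD stood at -0.37 (adjusted p = 0.77) and PTGES at -0.44 (adjusted p = 0.642), and neither passed the test. Every 100 µM array lay below every 30 µM array for DPYD and HHIP, as was so for 0.804% of all genes.

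Of the response genes, CDKN1A, the cell cycle inhibitor p21 and a p53 target, rose by 0.96 at 300 µM against 30 µM (limma adjusted p = 1.08e-10). HMOX1, the heme oxygenase induced by oxidative stress, stood at 0.31 (adjusted p = 0.23), while at 500 µM against vehicle it rose by 3.88 (adjusted p = 7.92e-20) and CDKN1A by 1.41 (adjusted p = 2.75e-16).

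**Figure D3:**
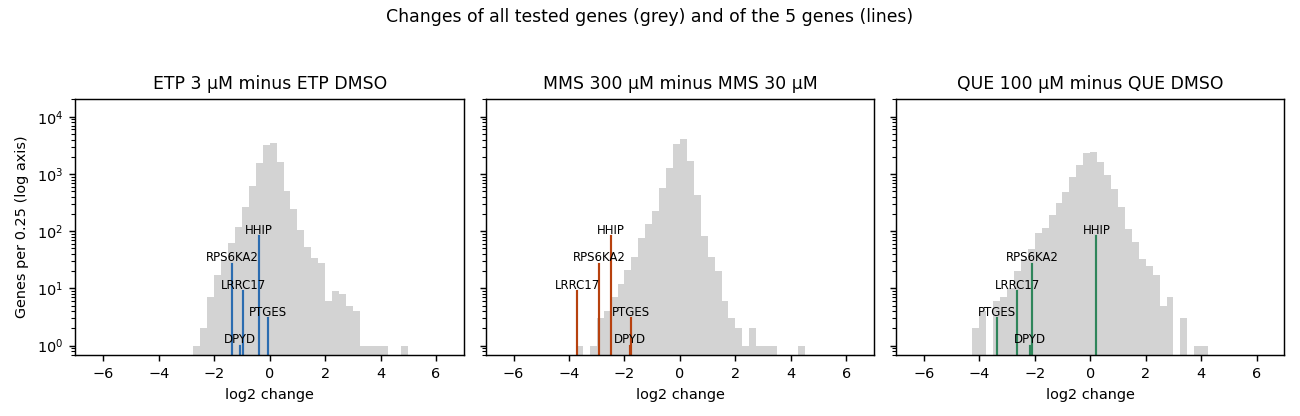
Number of tested genes (log axis) by log2 change in bins of 0.25, with a vertical line for each of the 5 genes, for ETP 3 µM against DMSO, MMS 300 µM against 30 µM and QUE 100 µM against DMSO. In the MMS panel the 5 lines lie in the left tail from -3.70 to -1.76. In the QUE panel 4 lines lie from -3.38 to -2.10 and HHIP at 0.22, and in the ETP panel the lines lie between -1.34 and -0.06.

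QUE lowered 4 of the 5 transcripts and, at 30 µM, raised HHIP. These values did not choose the genes. No gene was called at 1, 3 or 10 µM, where 0.0331%, 0.0911% and 1.78% of all genes were called in either direction. At 10 µM the groups were nevertheless apart for a pair of genes. DPYD read 8.78, 8.07, 8.35, 8.64 and 8.52 at 10 µM, against 8.93, 9.22, 9.14, 9.24 and 9.23 in vehicle. HHIP read 10.57, 10.55, 10.39, 10.38 and 10.43 at 10 µM, against 9.96, 9.84, 9.73, 9.80 and 9.84 in vehicle. All 5 DPYD arrays lay below all vehicle arrays (4.17% of all genes) and all 5 HHIP arrays above them (5.8%). The DPYD difference of -0.68 had a limma adjusted p of 0.303, and the HHIP difference of 0.63 had one of 0.161, or 0.0361 with replicate number as a block.

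At QUE 30 µM all 5 genes were called: 4 lower, where 8.64% of all genes were, and HHIP higher, where 8.4% were. DPYD read 7.75, 6.57, 7.39, 7.54 and 7.86 at 30 µM, all below its vehicle arrays given above. It fell by 1.73 ± 0.33 on the log2 scale (limma adjusted p = 8.58e-05). LRRC17 read 6.70, 6.00, 6.34, 6.99 and 6.78 at 30 µM, against 7.85, 8.48, 8.22, 8.47 and 8.40 in vehicle. It fell by 1.72 ± 0.33 (adjusted p = 9.38e-05), again with no overlap.

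PTGES and RPS6KA2 passed more narrowly in the fit without a replicate block. With replicate number as a block, the limma adjusted p was 0.00182 for PTGES and 0.00286 for RPS6KA2. PTGES read 6.94, 8.40, 8.32, 8.59 and 8.80 at 30 µM, against 8.73, 10.30, 9.84, 9.79 and 9.95 in vehicle. The groups overlapped, since 1 dosed array (8.80) lay above the lowest vehicle array (8.73). PTGES fell by 1.51 ± 0.58 (limma adjusted p = 0.0385, and 0.0531 to 0.148 in the 11 alternatives that lost the call). RPS6KA2 read 5.73, 6.60, 6.59, 6.22 and 6.28 at 30 µM, against 6.62, 7.80, 8.11, 7.22 and 7.28 in vehicle. It fell by 1.12 ± 0.42 (adjusted p = 0.0347, and 0.0573 to 0.119 in the 8 alternatives that lost the call), and its groups did not overlap.

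HHIP went the other way at this dose. It read 10.98, 10.60, 10.57, 10.84 and 10.94 at QUE 30 µM, with every array above every vehicle array. It rose by 0.95 ± 0.25 on the log2 scale (limma adjusted p = 0.00248), which is 1.94 times higher. All dosed arrays lay above vehicle for 16.7% of all genes at this dose, and below it for 15.9%, as for DPYD, LRRC17 and RPS6KA2. No other gene of the 5 was called higher at any QUE or ETP dose. HMOX1 rose by 1.87 at the same QUE dose (adjusted p = 0.000268) and CDKN1A by 0.68 (adjusted p = 0.000167).

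At 60, 80 and 100 µM the same 4 genes were called lower, where 12.7%, 13.1% and 14.5% of all genes were. At 60 µM the log2 changes were -2.22 for DPYD, -2.84 for PTGES, -2.53 for LRRC17 and -1.77 for RPS6KA2. Every array of these genes lay below every vehicle array there, as for 16.7% of all genes. At 80 µM the changes lay between -1.94 for DPYD and -2.67 for PTGES. Only DPYD and LRRC17 still had every array below every vehicle array (12.3% of all genes). From 30 µM on the HHIP mean came back toward vehicle, and read 10.79 ± 0.19, 10.38 ± 0.62, 10.12 ± 0.72 and 10.05 ± 0.58 (SD, n = 5) at the 4 doses from 30 to 100 µM. Its differences of 0.55, 0.29 and 0.22 at the 3 higher doses did not pass the test (limma adjusted p = 0.0629, 0.351 and 0.478), and the vehicle mean was 9.83 ± 0.08. At 60 µM HHIP was called higher without dosed number 3, without dosed number 4 and when its probe sets were averaged (0.66 to 0.95, adjusted p = 0.00504 to 0.0377).

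At QUE 100 µM PTGES read 5.63, 9.05, 5.77, 5.48 and 5.81, against 8.73, 10.30, 9.84, 9.79 and 9.95 in vehicle. The value of 9.05 is that of replicate number 3, and the other 4 dosed arrays lay more than 2 log2 units under the lowest vehicle array. PTGES fell by 3.38 ± 0.58 on the log2 scale (limma adjusted p = 1.05e-05). Without the dosed number 3 arrays it fell by 4.05, or 16.6 against 10.4 times lower on the linear scale.

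Number 3 was also the highest array for the other 3 genes that fell. DPYD read 7.45, 8.51, 6.17, 6.38 and 6.43 at 100 µM and fell by 2.16 ± 0.33 (limma adjusted p = 1.4e-06). LRRC17 read 6.17, 6.98, 5.09, 4.73 and 5.26 and fell by 2.64 ± 0.33 (adjusted p = 4.3e-08). RPS6KA2 read 5.33, 6.94, 5.47, 4.26 and 4.51 and fell by 2.10 ± 0.42 (adjusted p = 8.78e-05). Only DPYD and LRRC17 had every array below every vehicle array at this dose, as did 13.6% of all genes. Without the dosed number 3 arrays the changes were -2.54, -2.97 and -2.51 in this order.

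**Figure D4:**
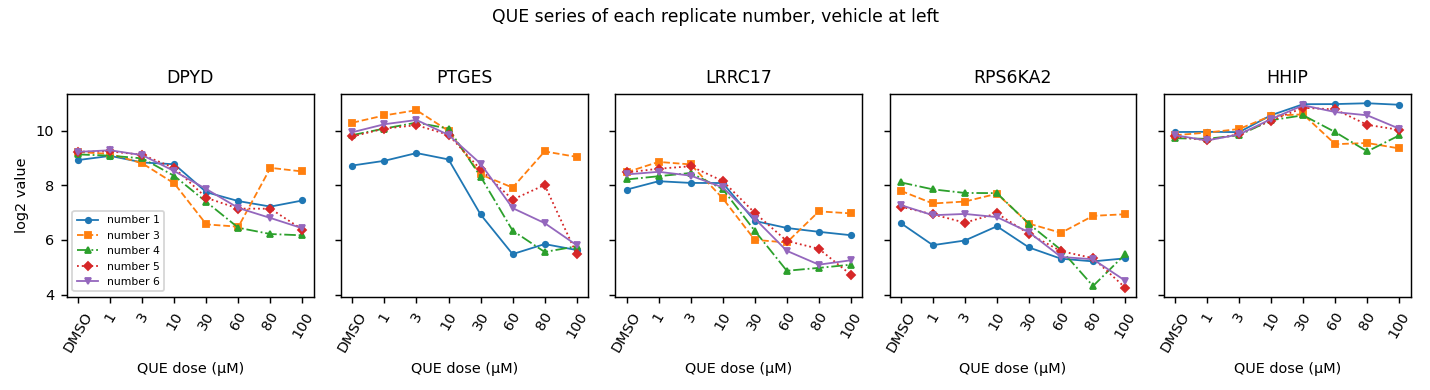
Log2 level of the 5 genes (panels) along the QUE doses in µM, 1 line per replicate number. Number 3 falls with the others up to 60 µM and stands highest at 80 and 100 µM for DPYD, PTGES, LRRC17 and RPS6KA2. The HHIP lines rise together to 30 µM and spread apart above it.

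By replicate, the level 1 log2 unit under the vehicle mean was crossed at a median of 16.3 µM QUE for DPYD (8.77 to 19.5), 18.6 µM for LRRC17 (11.9 to 22.8), 23.6 µM for RPS6KA2 (1 to 44.6) and 24.1 µM for PTGES (11.3 to 31.0). HHIP never crossed it. The level is set by the group mean and not by each replicate's own vehicle array, so a low end can reflect a low start. The 1 µM of RPS6KA2 is replicate number 1, which was lowest in vehicle too (6.62). It lay under the level at the lowest dose already, so no crossing was measured. The 11.3 µM of PTGES is also number 1, whose own vehicle array read 8.73 against a group mean of 9.72. DPYD thus came first under QUE, where its mean already stood at 8.47 ± 0.27 at 10 µM against 9.15 ± 0.13 in vehicle, while under MMS LRRC17 and RPS6KA2 came first. These orders are descriptions, since neighbouring ranges overlap.

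Under ETP 3 of the 5 genes were called, with smaller changes than at the highest QUE doses. No gene of the 5 was called from 0.003 to 0.3 µM, where 0%, 0%, 0.63%, 3.74% and 4.56% of all genes were called in either direction. At 1 µM DPYD and LRRC17 were called lower (3.73% of all genes). DPYD read 8.21, 8.93, 8.36, 8.41 and 8.31 at 1 µM, against 9.17, 9.21, 9.44, 9.31 and 9.38 in vehicle. It fell by 0.86 ± 0.13 on the log2 scale (limma adjusted p = 1.72e-06). LRRC17 read 7.43, 8.11, 7.48, 7.68 and 7.48 at 1 µM, against 7.93, 8.56, 8.17, 8.66 and 8.48 in vehicle. It fell by 0.73 ± 0.14 (adjusted p = 0.000144), with number 3 of the dosed arrays inside the vehicle range.

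DPYD was the first to separate from vehicle: all its arrays lay below vehicle at 0.3 µM (4.2% of all genes) and again at 1 µM (7.32%). RPS6KA2 at 1 µM read 6.53, 7.89, 7.15, 6.32 and 6.37, against 6.77, 8.08, 8.21, 7.29 and 7.44 in vehicle. Its difference of -0.71 did not pass the test (limma adjusted p = 0.135) and did with replicate number as a block (adjusted p = 2.02e-05). Each replicate was lower than the vehicle array of its own number, and without dosed number 3 the change was -0.97 (adjusted p = 0.00931).

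At ETP 3 µM DPYD, LRRC17 and RPS6KA2 were called lower, where 6.92% of all genes were. DPYD read 7.90, 8.83, 8.42, 7.92 and 8.00 at 3 µM and fell by 1.09 ± 0.13 (limma adjusted p = 9.77e-09). LRRC17 read 7.40, 7.85, 7.22, 7.43 and 7.16 and fell by 0.95 ± 0.14 (adjusted p = 1.42e-06). RPS6KA2 read 5.81, 7.56, 6.46, 5.76 and 5.50 and fell by 1.34 ± 0.36 (adjusted p = 0.0029). All arrays of DPYD and LRRC17 lay below vehicle (11.9% of all genes), and 1 RPS6KA2 array, number 3, lay inside the vehicle range. In the mean of its kept probe sets DPYD stood at -0.52 at 3 µM and -0.48 at 1 µM, under 1.5-fold.

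The other two genes were not called at any ETP dose. PTGES read 9.15, 10.46, 9.92, 9.81 and 9.73 at 3 µM, against 8.90, 10.46, 9.97, 9.99 and 10.05 in vehicle, a difference of -0.06 ± 0.28 (limma adjusted p = 0.886). HHIP read 9.84, 9.92, 9.54, 9.64 and 9.42 at 3 µM, against 10.05, 10.02, 10.08, 10.25 and 9.84 in vehicle. Its difference of -0.38 ± 0.11 had an adjusted p of 0.00549 but was under 1.5-fold, so it was not called. CDKN1A rose by 1.83 at the same dose (adjusted p = 1.35e-17).

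The highest doses of ETP and QUE were compared directly, as the difference between their responses, each against its own vehicle. They are not matched doses, and ETP 3 µM had fewer genes called than QUE 100 µM (13.2% against 27.6% of all genes). The ETP response minus the QUE response was 3.32 ± 0.66 for PTGES (limma adjusted p = 4.79e-05), 1.69 ± 0.36 for LRRC17 (adjusted p = 0.000161) and 1.08 ± 0.36 for DPYD (adjusted p = 0.014). These 3 genes were called, where 12.4% of all genes were called in that direction, and the DPYD call was lost in 4 alternatives, on fold or on p (0.57 to 0.98, adjusted p = 0.0291 to 0.458). RPS6KA2 at 0.76 (adjusted p = 0.313) and HHIP at -0.60 (adjusted p = 0.0838) did not pass. PTGES thus had the widest gap of the 5 genes, with a log2 difference from vehicle of -0.06 under ETP and -3.38 under QUE. With replicate number 2 kept as labelled, none of the 5 genes was called, and PTGES stood at 1.91 (adjusted p = 0.28) and LRRC17 at 0.92 (adjusted p = 0.402).

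The other probe sets of each gene gave a check on these results. Of 13 probe sets, 10 passed the filter of a level of at least 4 on at least 5 arrays, and 3 did not: 1554536_PM_at of DPYD, 232924_PM_at of LRRC17 and 1557970_PM_s_at of RPS6KA2, whose highest values were 2.98, 3.25 and 3.17. LRRC17 thus rests on 1 probe set. Under QUE 30 µM the HHIP sets 1556037_PM_s_at and 223775_PM_at rose by 2.04 and 1.14 (limma adjusted p = 0.00229 and 0.00269), and at MMS 300 µM against 30 µM they stood at -2.07 and -2.82. The 3 HHIP sets gave unlike sizes above QUE 30 µM. At 60 µM 1556037_PM_s_at rose by 1.66 (adjusted p = 0.0085), while 223775_PM_at stood at 0.65 (adjusted p = 0.0686) and the chosen set at 0.55 (adjusted p = 0.0643). At 100 µM the same sets stood at 1.12, 0.16 and 0.22, and none passed (adjusted p = 0.069, 0.668 and 0.48).

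The second PTGES set, 207388_PM_s_at, stood at -1.37 at MMS 300 µM against 30 µM and fell by 1.21 at QUE 30 µM (limma adjusted p = 0.0102). The second RPS6KA2 set, 204906_PM_at, stood at -1.12 at MMS 300 µM against 30 µM. At QUE 30 µM it stood at -0.56 and at ETP 3 µM at -0.54, and neither passed (adjusted p = 0.137 and 0.0534). At QUE 60, 80 and 100 µM it fell by 0.79, 0.82 and 0.98 (adjusted p = 0.0234, 0.0189 and 0.00511). The second DPYD set, 1554534_PM_at, never exceeded 4.23. It gave -0.14 at MMS 300 µM against 30 µM, -0.07 at QUE 30 µM and 0.05 at ETP 3 µM. The DPYD result thus rests on 204646_PM_at.

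Among the enzymes upstream of PTGES, PTGS2 and PLA2G4A fell at MMS 300 µM and at QUE 100 µM. Lists of pathway genes were compared by counts and medians only, since the lists were chosen with earlier results known. Of all genes, 6.65% were called lower and 2.95% higher at MMS 300 µM against 30 µM. These shares were 8.64% and 8.4% at QUE 30 µM, 14.5% and 13.1% at QUE 100 µM, and 6.92% and 6.25% at ETP 3 µM. The counts of this list and of the lists below are read against them. Of 13 measured prostaglandin genes beside PTGES, 3 fell and 1 rose at MMS 300 µM against 30 µM (median -0.09, against 0.02 over all genes). PTGS2, the inducible cyclooxygenase, fell by 1.95 (limma adjusted p = 7.6e-07), PLA2G4A, the phospholipase that releases arachidonic acid, by 1.47, and the prostaglandin E2 receptor PTGER4 by 0.86. PTGR1, a prostaglandin reductase, rose by 0.94. At QUE 100 µM 3 fell and 1 rose (median -0.48, against 0.00 over all genes): PLA2G4A fell by 3.31, PTGS2 by 2.51 and the exporter ABCC4 by 0.64, and PTGS1, the constitutive cyclooxygenase, rose by 0.81. At QUE 30 µM PLA2G4A fell by 2.53 and PTGS1 rose by 0.62, and no other gene of the list was called. At ETP 3 µM 0 fell and 1 rose, the receptor PTGFR (1.24).

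Of 9 measured Hedgehog genes beside HHIP, 3 fell and 0 rose at MMS 300 µM against 30 µM (median -0.30): the co-receptors BOC, by 0.93, and GAS1, by 0.79, and the transcription factor GLI3, by 0.68. At QUE 30 µM BOC fell by 1.06 and SUFU, a negative regulator of GLI proteins, by 0.69, and 0 rose (median -0.25). At QUE 100 µM 4 fell and 0 rose (median -0.50): GAS1 by 1.51, BOC by 1.41, GLI3 by 1.35 and GLI2 by 1.02. At ETP 3 µM GLI2, the receptor gene PTCH1 and GLI3 fell by 0.98, 0.76 and 0.67, and HHAT, which attaches palmitate to Hedgehog ligands, rose by 1.02 (median -0.38, against 0.01 over all genes). The level of PTCH1 was under 4 in both ETP groups (3.18 at 3 µM, against 3.94 in vehicle).

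Of 9 measured RSK kinases and MAP kinase partners beside RPS6KA2, 0 fell in any of these comparisons, and 1 rose at MMS 300 µM against 30 µM, 2 at QUE 30 µM, 3 at QUE 100 µM and 1 at ETP 3 µM (medians 0.13, 0.13, 0.32 and -0.01). RPS6KA1, another RSK kinase, rose by 0.74 at MMS 300 µM against 30 µM and by 1.00 at ETP 3 µM. SPRY4, an ERK-induced feedback inhibitor, rose by 1.55 at QUE 30 µM and 1.91 at QUE 100 µM, PEA15, which binds ERK and RSK, by 0.59 and 1.04, and FOS, an immediate early gene, by 1.72 at 100 µM.

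Few genes beside DPYD and LRRC17 were called. Of 9 measured pyrimidine genes, CDA, cytidine deaminase, fell by 0.86 at MMS 300 µM against 30 µM (limma adjusted p = 0.000103) and by 0.67 at QUE 100 µM. TK1, thymidine kinase, fell by 0.86 at QUE 100 µM, and CDA and TK1 fell by 0.69 and 0.85 at QUE 30 µM. None of the 9 was called at ETP 3 µM. Of 6 genes of the RANK ligand axis, TNFRSF11A, the receptor RANK, fell by 1.21 at MMS 300 µM against 30 µM and 0.59 at ETP 3 µM, and TNFRSF11B, the decoy receptor osteoprotegerin, fell by 1.05 at QUE 100 µM. Of 9 housekeeping genes, 0 were called at MMS 300 µM against 30 µM, QUE 30 µM or ETP 3 µM, and HPRT1 fell by 0.79 at QUE 100 µM.

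The genes with the most similar pattern were found by Pearson's r over the 24 group means, centred within each chemical. Groups of a chemical share vehicle arrays and normalization, so r is a description. The groups include the MMS doses that chose the genes, so a high r between any of the 5 is built in. DPYD was most like KCNMA1, STMN3 and NTM (r = 0.99 each). PTGES was most like FAM20C (0.99), B9D1 and TWIST1 (0.98 each), and FAM20C stood at -3.33, -2.31 and -0.14 at MMS 500, QUE 100 and ETP 3 µM. LRRC17 was most like SHROOM2 (0.99), TENM4 and NRP2 (0.98 each), and RPS6KA2 was most like AUH (0.99), GJB2 and LRRC17 itself (0.98 each). HHIP was most like LOX, HHIP-AS1 and MAP3K9 (0.98 each), and LOX stood at -2.82, -0.04 and -0.40 at the same 3 doses.

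The nearest genes on either side were taken from the RefSeq table of GRCh38.p14. HHIP-AS1, the antisense gene next to HHIP, fell by 1.47 at MMS 300 µM against 30 µM (limma adjusted p = 9.58e-08). Its level was 4.06 ± 0.28 at MMS 500 µM and 5.83 ± 0.75 at MMS 300 µM, against 7.42 ± 0.05 in vehicle (SD, n = 5, 6 and 6). At QUE 30 µM it read 8.38 ± 0.27, against 7.73 ± 0.23 in vehicle, and its difference of 0.65 did not pass (adjusted p = 0.203). On the other side of HHIP, ANAPC10 stood at -0.09 at MMS 300 µM against 30 µM. The neighbours PTBP2 of DPYD, TOR1B of PTGES and MPC1 of RPS6KA2 stood at 0.00, 0.02 and 0.08, and none of these 4 neighbours passed the test in that comparison (adjusted p = 0.405 to 0.984). At MMS 500 µM against vehicle TOR1B rose by 0.66 (adjusted p = 3.22e-09). At ETP 3 µM ANAPC10 and PTBP2 stood at -0.55 and -0.48 (adjusted p = 1.37e-07 and 0.000887), short of 1.5-fold. The neighbours MIR137HG, PRRX2, FBXL13, FAM185A, NFE4 and RPS6KA2-AS1 had no probe set that passed the filter and were not tested.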

How the data were processed

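Transcript levels were measured on 145 Affymetrix arrays (49 ETP, 47 MMS and 49 QUE). The values the authors deposited are log2 levels, made with GCRMA in Partek per the submitters' processing notes. Software versions are not given in the sources used here. The array medians differ by chemical, so each chemical was set against its own vehicle. Of 54613 probe sets, the platform annotation gives 1 gene symbol for 40914, more than 1 for 864 and no symbol for 12835. Probe sets with a log2 level of at least 4 on at least 5 arrays were kept (27102, of which 22765 had 1 symbol), and the probe set with the highest mean stood for each of 12070 genes. ETP and QUE replicate number 2 was left out in every group. Arrays of a group with the same number were averaged (ETP 0.01 µM and QUE 100 µM, number 6), which left 127 replicates.

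Each chemical was fitted with limma 3.58.1 (lmFit, and eBayes with a trend) in R 4.3.3, with Benjamini-Hochberg adjustment over all genes. A gene was called at an adjusted p under 0.05 and at least 1.5-fold. MMS 300 and 100 µM against 30 µM were fitted on the groups at 1 to 300 µM, and the 300 µM values of the 5 genes are given as a description. The difference between ETP and QUE was fitted on both chemicals together. The scripts were tested on simulated data. Figures were drawn with matplotlib 3.10.9. The number of arrays limits the precision.

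Same-numbered arrays deviated together (r over 0.1 in every pair) at all ETP doses, at QUE 1 to 30 µM and at MMS 1 to 300 µM, so the numbers pair the samples there. They did not at QUE 60 to 100 µM (lowest r 0.06) or MMS 500 µM (lowest r -0.01). Alternatives were a replicate block, no filter, the mean of kept probe sets, all kept probe sets, quantile normalization, values under 4 set to 4, no trend, number 2 kept, arrays with the suffix nf left out, and each replicate left out in turn (64 fits). Using all kept probe sets was added after the data were seen.

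The text names the 5 genes and all their probe sets, for each the 3 genes with the highest r, the nearest annotated genes, and up to 4 called genes per pathway list and comparison, with CDKN1A and HMOX1 as response genes. The genes, lists and comparisons were chosen with earlier results of these data known. Promoter sequences are those of RefSeq.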

Additional observations from a re-analysis of the deposited data

Results flagged for a closer look

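The 5 genes in 24 groups gave 120 sets of 5 or 6 values. In 9 of them, 1 value lay apart from the others by Dixon's test. Chance alone does so in about 1 in 20 independent sets. These sets share arrays and replicate numbers, so they are not independent, and neither are the flags. At QUE 100 µM PTGES read 9.05 in number 3, against 5.48 to 5.81 in the others. PTGES read 6.94 in number 1 at QUE 30 µM (others 8.32 to 8.80), 8.95 in number 1 at QUE 10 µM (others 9.85 to 10.08) and 7.64 in number 3 at MMS 100 µM (others 8.55 to 8.75). Number 1 was the lowest PTGES array of the QUE vehicle too (8.73). DPYD read 8.93 in number 3 at ETP 1 µM (others 8.21 to 8.41), 9.09 in number 1 at ETP 0.01 µM (others 9.35 to 9.43) and 8.14 in number 2 at MMS 100 µM (others 8.31 to 8.40). HHIP read 8.72 in number 4 at MMS 1 µM (others 9.01 to 9.16) and 8.93 in number 4 of the MMS vehicle (others 9.08 to 9.14).

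The responses to ETP 3 µM and QUE 100 µM differed by test for PTGES (3.32), LRRC17 (1.69) and DPYD (1.08), as given above. HHIP moved in opposite directions in 2 chemicals: every QUE 30 µM array lay above its vehicle and every MMS 500 µM array below its own, and the log2 differences lay 5.59 apart. That difference was not tested, and the MMS values chose the gene.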

How the results depend on the processing

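The 5 genes' changes gave 1665 values under the alternatives. Of these, 1610 stayed on their side of the threshold, 46 lost the call and 9 gained it. The values include MMS 300 µM against 30 µM, given above as a description because those arrays helped choose the genes. They also include the low ETP and QUE doses, where no gene of the 5 was called in the main fit. The number that stayed is thus no measure of how firm the calls are. Among called changes 0 reversed direction. Some changes that were not called did change sign. With 1 replicate left out, PTGES at ETP 3 µM ran from -0.304 to 0.107. Each scaling moved the median of all genes by under 0.1. With the replicate block 137 genes, against 48, were called at MMS 100 µM against 30 µM. Where the numbers pair, the block changed 2 calls of single chemicals, RPS6KA2 at ETP 1 µM and HHIP at QUE 10 µM. HHIP was also called in the difference of ETP and QUE (adjusted p = 0.0218), and the block changed no other call of the 5 genes. Where the numbers do not pair, HHIP at QUE 60 µM had an adjusted p of 0.0185 with the block but stayed under 1.5-fold. The block also gave 183 against 76 genes at ETP 0.03 µM, 18 against 4 at QUE 1 µM, 31 against 11 at QUE 3 µM and 333 against 215 at QUE 10 µM. With number 2 kept as labelled, 14 genes were called at ETP 0.03 µM, 136 against 451 at ETP 0.1 µM, 24 at QUE 10 µM, 0 at QUE 1 and 3 µM, 1323 against 2057 at QUE 30 µM (3 of the 5 genes) and 1 against 2766 for the difference (0 of the 5). Without the arrays with the suffix nf, 3 of the 5 were called at QUE 30 µM and 2 genes in all at QUE 3 µM. With the mean of kept probe sets 7 genes were called at QUE 1 µM, as with values under 4 set to 4. At MMS 500 µM the mean of kept probe sets gave -3.05 for DPYD, -3.77 for PTGES and -2.83 for RPS6KA2, and values under 4 set to 4 gave -4.88, -3.49 and -3.03 for DPYD, LRRC17 and RPS6KA2.

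With 1 replicate left out, the 5 genes gave 3 to 5 calls at QUE 30 µM (3 without dosed number 1, 5 or 6 or vehicle number 3 or 4). They gave 3 at ETP 3 µM, 4 at QUE 100 µM and 2 to 4 for the difference. At MMS 100 µM against 30 µM they gave 1 to 3, with 26 to 95 genes in all: 26 without MMS 30 µM number 4, 30 without dosed number 3, 31 without MMS 30 µM number 2 and 95 without dosed number 5. At ETP 0.03 µM 29 to 269 genes were called, at QUE 1 µM 1 to 20 and at QUE 3 µM 1 to 25.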

Other observations

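The arrays left out as replicate number 2 gave these log2 levels. The array labelled ETP 3 µM read 6.26 for DPYD, 4.65 for PTGES, 4.49 for LRRC17, 4.19 for RPS6KA2 and 10.08 for HHIP, against 9.15, 9.96, 8.42, 8.32 and 10.08 in the ETP vehicle of that number. HHIP read 10.72, 11.04, 11.06 and 10.81 on the arrays labelled ETP 0.03, 0.1, 0.3 and 1 µM. The array labelled QUE 100 µM read 7.95 for DPYD, 9.56 for PTGES, 7.32 for LRRC17, 5.59 for RPS6KA2 and 9.54 for HHIP, against 9.20, 9.77, 8.32, 7.74 and 9.94 in the QUE vehicle of that number. The labels were kept as given, and these arrays enter no comparison above.

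At MMS 500 µM against vehicle 16.9% of all genes were called lower and 17.7% higher, and the counts below are read against these shares. Outside the 5 genes, 4 of 9 Hedgehog genes fell and 0 rose, GLI3 by 2.34, GLI2 by 1.53, BOC by 1.46 and GAS1 by 1.41 (limma, adjusted p under the threshold). Of 13 prostaglandin genes 4 fell and 2 rose, PTGS2 by 2.63 and PTGER4 by 1.91 among those that fell. Of 9 pyrimidine genes 4 fell and 2 rose: UPP1, uridine phosphorylase, rose by 2.15, and CDA fell by 1.79 and TK1 by 1.67. HPRT1 fell by 1.02 and TBP rose by 0.61 among 9 housekeeping genes.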
